A study of Mus musculus with 5 samples.

Results

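The genes described are the matrix metalloproteinases *Mmp2*, *Mmp9*, *Mmp14* and *Mmp15*, the related protease *Adamts1*, and the inhibitors *Timp1*, *Timp2*, *Timp3*, *Timp4* and *Reck*. They were found by matching Ensembl identifiers to symbols in the NCBIM37 annotation, which gave 10 genes, each with 1 identifier, of 34615 symbols in all. RNA was sequenced from brain microvascular fragments of 3 wild-type (WT) and 2 heterozygous Ins2-AKITA littermates, with 1 library per mouse. All were C57BL6 males aged 26 to 38 weeks. The Ins2-AKITA strain carries a mutated insulin gene that acts in the beta cells of the pancreas, and its animals become hyperglycemic. The fragments were released with collagenase and captured with beads against PECAM1, an endothelial surface protein, so each library holds endothelial cells together with adherent pericytes and the end-feet of astrocytes. The comparison asked whether prolonged hyperglycemia was accompanied by a different level of these genes in the vessel wall.

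Matrix metalloproteinases cut collagens, laminins and other proteins of the vessel basement membrane. They are made as inactive precursors and are held in check by the tissue inhibitors of metalloproteinases, the TIMPs, which plug the catalytic site. In the brain the gelatinases MMP2 and MMP9 are best known for opening the blood-brain barrier after stroke, the membrane-bound MMP14 for activating MMP2 together with TIMP2, and ADAMTS1 for cutting proteoglycans such as versican.

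What separates the proteases from the inhibitors is visible in their coding sequence. The metzincin proteases hold a zinc ion with 3 histidines set in a short motif. An in-frame search of the longest annotated coding sequence of each gene found this motif once in each of the 5 proteases and in 0 of the 5 inhibitors. Of all 21650 coding genes searched, 74 held it (0.342%), when either glycine or asparagine was allowed between the second and the third histidine. The 33 bases are shown because they define the catalytic members. They are written 5′ to 3′ on the coding strand from the NCBIM37 transcripts of GENCODE vM1, with the 3 histidine codons in capitals.
Mmp2: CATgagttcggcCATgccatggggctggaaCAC
Mmp9: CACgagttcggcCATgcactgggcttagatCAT
Mmp14: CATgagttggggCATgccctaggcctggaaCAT
Mmp15: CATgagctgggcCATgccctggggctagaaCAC
Adamts1: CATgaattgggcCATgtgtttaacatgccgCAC

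These stretches lie in coding exons on NCBIM37, in exon 8 of *Mmp2* (chr8:95363178-95363210, plus strand), exon 8 of *Mmp9* (chr2:164776633-164776665, plus strand), exon 5 of *Mmp14* (chr14:55056464-55056496, plus strand) and exon 5 of *Mmp15* (chr8:97892485-97892517, plus strand). The *Adamts1* stretch is split over exons 3 and 4 (chr16:85799436-85799790, minus strand). *Mmp2* and *Mmp15* shared 29 of the 33 bases, and *Adamts1* shared between 18 and 20 with the MMP genes.

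The values are FPKM, the fragments per exon length and library size, as the authors deposited them. Steps between low FPKM values allowed the number of fragments behind them to be estimated, and it lay between 1127705 and 1319145 in 4 mice and at 2854179 in WT replicate 3. Markers of the intended cells were present in every library. The 8 endothelial markers summed to between 433 and 756 FPKM in WT, compared with between 376 and 469 in Ins2-AKITA mice, and the 8 pericyte markers to between 210 and 266 and between 180 and 231. RNA of other brain cells was abundant too, with sums of 6 oligodendrocyte markers between 1930 and 2610 in WT, compared with between 2100 and 2300 in Ins2-AKITA mice, and of 7 neuronal markers between 744 and 822 and between 741 and 890. The 7 microglial and macrophage markers summed to between 70.7 and 111 FPKM in WT, compared with between 89.4 and 102 in Ins2-AKITA mice. For the 7 perivascular fibroblast markers, of which *Dpt* was listed at 0 in all mice, the sums lay between 30.4 and 34.4 and between 32.6 and 36.8. In such bulk samples, fewer cells of a type and less RNA per cell cannot be told apart.

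The inhibitors were the more abundant side in every mouse. *Timp3*, whose protein binds to the extracellular matrix, had the highest mean level of the 10 genes, with 58.2 ± 7.52 FPKM (SD, n = 5), at percentile 94.1 of all protein-coding symbols. *Timp2* followed with 53.6 ± 15.2 and *Timp4* with 41.3 ± 5.54 FPKM. These levels did not separate beyond their spread, as *Timp3* exceeded *Timp2* in 3 of 5 mice and *Timp2* exceeded *Timp4* in 4 of 5. A gap came next, because *Timp4* was above *Reck* in 5 of 5 mice and their ranges did not overlap. *Reck*, an inhibitor anchored in the cell membrane, had 14.5 ± 7.90 FPKM (SD, n = 5).

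The proteases followed without a gap, as *Reck* exceeded *Adamts1* in 3 of 5 mice. *Adamts1* had 12.8 ± 4.89 FPKM and *Mmp14* 12.2 ± 2.73 (SD, n = 5), and their order varied between mice, with *Adamts1* above *Mmp14* in 2 of 5. *Mmp15*, another membrane-bound MMP, had 7.10 ± 2.10 FPKM and lay below *Mmp14* in 5 of 5 mice, by a factor between 1.04 and 3.14. *Timp1* stood apart from the other TIMPs, with 5.65 ± 2.84 FPKM, and *Mmp15* exceeded it in 3 of 5 mice. The gelatinases were lowest, with *Timp1* above *Mmp2* in 5 of 5 mice without overlap of their ranges and *Mmp2* above *Mmp9* in 4 of 5. *Mmp2* had 1.01 ± 0.454 FPKM and *Mmp9* 0.908 ± 1.05, at percentiles 37.3 and 36.6 of protein-coding symbols, and *Mmp9* alone did not reach the mean FPKM of 1 required for testing.

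**Figure D1:**
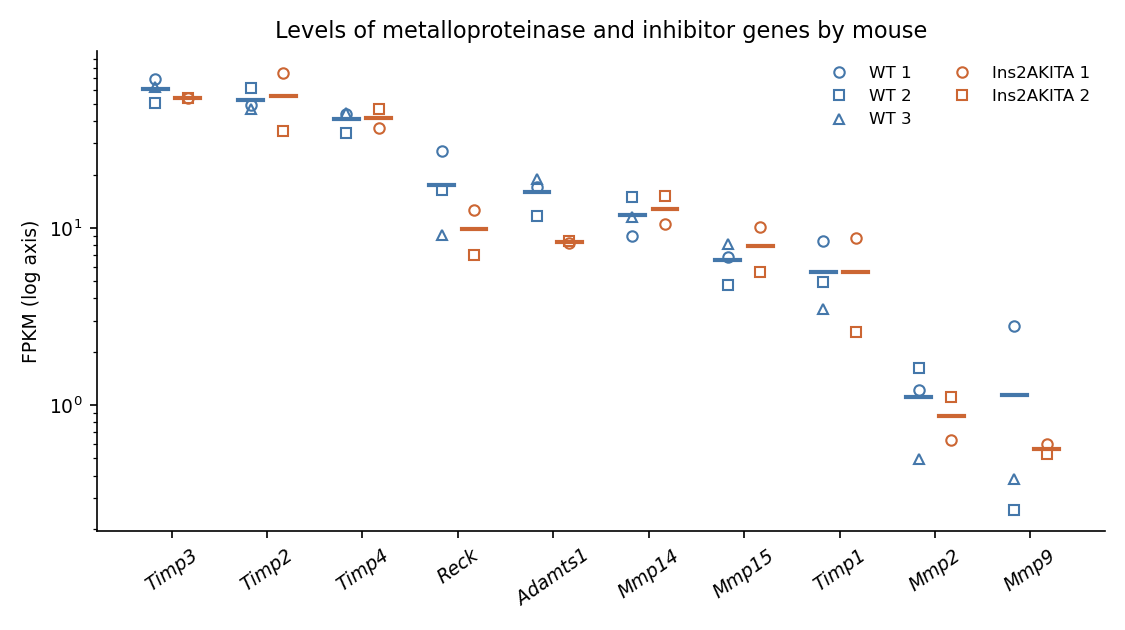
FPKM on a log axis for the 10 genes in order of their mean, with 1 symbol per mouse (blue WT, orange Ins2-AKITA) and a bar at each group mean. *Timp3*, *Timp2* and *Timp4* lie between 34.3 and 75.2 FPKM in all mice, and *Adamts1* is the gene in which both Ins2-AKITA mice, at 8.19 and 8.41, are below all WT mice.

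Genotype was compared with limma on log2(FPKM + 1) over the 16286 symbols that averaged 1 FPKM or more, with Benjamini-Hochberg adjustment at 0.05. None of the 9 members tested passed (0 higher and 0 lower, against 0.0% higher and 0.0246% lower of all symbols), and the smallest adjusted p from limma among them was 0.90. Before adjustment, 1 member was lower at p under 0.05, against 2.93% of all symbols, and 0 were higher, against 1.53%. Of the tested members 6 had a negative and 3 a positive log2 fold change, against 53.5% negative among all symbols tested. Their median was -0.10, beside -0.03 for all symbols tested. Only *Adamts1*, *Timp3* and *Reck* kept their sign under all 12 other settings and subsets of mice tried. *Mmp2* could be fitted in fewer of them, as it fell under the filter in the rest.

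*Adamts1* had the lowest unadjusted limma p of the 9 members tested. It lies on the minus strand of chromosome 16 from 85794072 to 85803358 (ENSMUSG00000022893). WT replicates 1, 2 and 3 measured 16.9, 11.7 and 18.9 FPKM, and the Ins2-AKITA animals 8.19 and 8.41. Both Ins2-AKITA mice were below all WT mice, which was so for 1 of the 10 members and for 10.3% of all symbols tested. The reverse, both above all WT mice, held for 0 members and for 9.24% of symbols. The WT mean was 15.8 ± 3.70 (SD, n = 3) and that of the mutants 8.30 ± 0.159 (SD, n = 2), a 1.91-fold lower level with the mutation, and the difference was larger than the SD of either group. As log2(FPKM + 1), the genotypes differed by -0.83 (standard error 0.27, 95% confidence interval -1.49 to -0.17). The limma p was 0.021 before adjustment, rank 297 of all symbols, and 0.90 after it. An exact two-sided permutation test gave p = 0.2, where 0.1 is the smallest that 3 mice against 2 allow. With the length of its longest transcript, 91.9, 72.2 and 251 fragments stood behind the WT values and 43.0 and 50.3 behind the Ins2-AKITA values, so that counting error alone left a 95% Poisson interval of 31.1 to 57.9 fragments for Ins2-AKITA replicate 1.

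Cell type markers differed between the same libraries. The 5 arterial smooth muscle markers summed to 214, 252 and 234 FPKM in WT, compared with 174 and 136 in Ins2-AKITA mice, groups that did not overlap, and 3 of the 5 were lower at an unadjusted limma p under 0.05, against 2.93% of all symbols. *Acta2*, *Tagln*, *Myh11* and *Cnn1*, which encode contractile proteins, were each below all WT mice in both Ins2-AKITA mice, against 10.3% of all symbols. *Myocd*, a transcription factor of smooth muscle, measured 2.17, 2.82 and 7.06 FPKM across the WT animals, set against 8.44 and 6.82 with the mutation. The 7 astrocyte markers differed in the other direction, with sums between 2120 and 2930 FPKM in WT, and of 3340 and 3930 in the mutants, and 4 of the 7 were above all WT mice in both, against 9.24% of all symbols. Of 8 endothelial markers 7 had a negative log2 fold change, against 53.5% of all symbols. *Pecam1*, *Cdh5* and *Abcb1a* were below all WT mice in both Ins2-AKITA mice, against 10.3% of all symbols. Of 8 pericyte markers 6 had a negative log2 fold change, against the same 53.5%. For 1 of them, *Vtn*, both Ins2-AKITA mice were below all WT mice, against the same 10.3%. Red blood cell genes were low in both groups, with sums of the 5 genes between 35.1 and 67.7 in WT. In Ins2-AKITA mice the sums were between 25.1 and 32.4, without overlap. All 5 had a negative log2 fold change, against 53.5% of all symbols, with a median of -1.09. Of the 5, 1 was lower at an unadjusted limma p under 0.05, *Hba-a2*, against 2.93% of all symbols. Immediate early genes, which respond within minutes to tissue handling, summed to between 159 and 203 FPKM over 8 genes in WT and between 146 and 151 in Ins2-AKITA mice. None of the marker or early genes passed the adjusted threshold in limma. Expressed as a percentage of the arterial smooth muscle sum of the same mouse, *Adamts1* was 7.88, 4.66 and 8.08 in WT, and 4.71 and 6.17 in the mutants, so the groups overlapped. As a percentage of the endothelial sum it was 3.33, 1.55 and 4.37 in WT, and 1.74 and 2.24 in the mutants, again with overlap. As a percentage of the pericyte sum it was 7.2, 4.4 and 9.0 in WT, and 3.6 and 4.7 in the mutants, also with overlap. As a percentage of the astrocyte sum it was 0.798, 0.462 and 0.646 in WT, and 0.245 and 0.214 in the mutants, without overlap. The part of cell composition or tissue handling in the *Adamts1* difference was not tested.

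**Figure D2:**
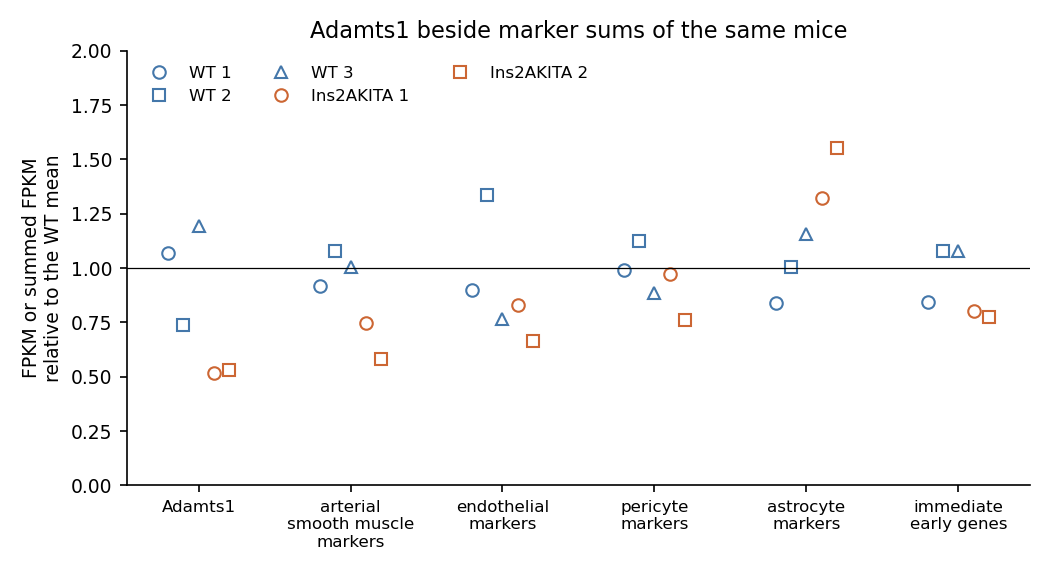
*Adamts1* FPKM, summed FPKM of 4 marker lists and summed FPKM of immediate early genes, each divided by its WT mean, with 1 symbol per mouse (blue WT, orange Ins2-AKITA). *Adamts1* and the arterial smooth muscle sum lie below all WT mice in both Ins2-AKITA mice, as does the immediate early gene sum, the astrocyte sum is above, and the endothelial and pericyte sums overlap.

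*Mmp14* and *Mmp15* overlapped between the genotypes. *Mmp14* (ENSMUSG00000000957, chromosome 14 from 55050441 to 55060095) showed 9.03, 15 and 11.5 FPKM in the 3 WT animals while the mutants had 10.5 and 15.1, which gave a difference of 0.11 as log2(FPKM + 1) (95% confidence interval -0.62 to 0.83). *Mmp15* (ENSMUSG00000031790, chromosome 8 from 97876168 to 97898193) reached 6.85, 4.78 and 8.09 FPKM for WT and 10.1 and 5.66 for Ins2-AKITA, which gave a difference of 0.21 as log2(FPKM + 1) (95% confidence interval -0.65 to 1.07). Ins2-AKITA replicate 1 was the highest mouse for *Mmp15*, and Ins2-AKITA replicate 2 the highest for *Mmp14*. The adjusted p from limma was 0.96 for *Mmp14* and 0.94 for *Mmp15*.

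The gelatinases rested on few fragments. *Mmp2* (ENSMUSG00000031740, chromosome 8 from 95351227 to 95377316) stood at 1.22, 1.62 and 0.499 FPKM without the mutation and 0.631 and 1.11 with it. Its single annotated transcript allowed the fragments to be recovered as whole numbers, 4, 6 and 4 in WT, compared with 2 and 4 in Ins2-AKITA mice. Its log2 fold change of -0.15 had a 95% confidence interval from -1.47 to 1.17 (adjusted p = 0.97 from limma).

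*Mmp9* (ENSMUSG00000017737, chromosome 2 from 164766280 to 164781350) measured 2.78, 0.257 and 0.381 FPKM across the WT animals, set against 0.601 and 0.527 with the mutation. WT replicate 1 was the single mouse above 1 FPKM, with an estimated 9.56 fragments on the longest transcript, and the other 4 mice had between 1 and 3.2. Without that mouse the WT mean fell from 1.14 to 0.319 FPKM, below the Ins2-AKITA mean of 0.564. Neutrophils carry MMP9 in their granules. Of 7 neutrophil markers, *S100a8*, *Camp* and *Ly6g* were listed at 0 in all mice, and none reached a mean FPKM of 1. The summed level of the list was between 0 and 3.62 FPKM in WT, compared with between 0 and 0.895 in Ins2-AKITA mice. It was 0 in WT replicate 1. The source of the *Mmp9* RNA in that mouse was not tested.

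*Timp3* overlapped between the genotypes. It lies on the plus strand of chromosome 10 from 85763117 to 85812251 (ENSMUSG00000020044) and showed 69.2, 50.6 and 62.5 FPKM in the 3 WT animals while the mutants had 54.3 and 54.4, both within the WT range. The log2 fold change was -0.15 (standard error 0.20, 95% confidence interval -0.63 to 0.34, adjusted p = 0.92 from limma). *Timp4* (ENSMUSG00000030317, chromosome 6 from 115195634 to 115201867) reached 43.9, 34.3 and 44.6 FPKM for WT and 36.5 and 47.1 for Ins2-AKITA, which gave a difference of 0.03 as log2(FPKM + 1) (95% confidence interval -0.50 to 0.56). These were the narrowest intervals of the 9 members tested.

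*Timp2* separated the Ins2-AKITA mice from each other rather than from WT. It lies on the minus strand of chromosome 11 from 118162383 to 118217054 (ENSMUSG00000017466), with 49.1, 61.3 and 46.9 FPKM across WT animals, and 75.2 and 35.4 in the mutants. One Ins2-AKITA mouse was above and the other below all WT mice, and the log2 fold change was -0.01 (95% confidence interval -0.82 to 0.80). *Timp1* (ENSMUSG00000001131, chromosome X from 20447292 to 20451861), the TIMP best known as inducible by injury, had the same pattern, at 8.47, 4.98 and 3.47 FPKM for WT and 8.76 and 2.57 for Ins2-AKITA. With its shorter transcript these values correspond to 6.02, 4.01 and 6.01 fragments in WT, compared with 6.02 and 2 in the mutants, so the FPKM of *Timp1* rested on few fragments. Its log2 fold change was -0.10 (95% confidence interval -1.41 to 1.21, adjusted p = 0.98 from limma).

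*Reck* was lower in Ins2-AKITA mice by a similar factor as *Adamts1*, but with overlap. It lies on the plus strand of chromosome 4 from 43888402 to 43957678 (ENSMUSG00000028476), with 27.1, 16.4 and 9.17 FPKM across WT animals, and 12.6 and 7.02 in the mutants. WT mice differed among themselves by a factor of 2.95, and Ins2-AKITA replicate 1 lay inside their range. Mean levels came to 17.5 ± 9.02 (SD, n = 3) against 9.84 ± 3.98 (SD, n = 2), a difference smaller than the SD of WT mice. On the log2 scale it differed by -0.71 (standard error 0.47, 95% confidence interval -1.85 to 0.44, adjusted p = 0.90 from limma). Without WT replicate 1 it was -0.35, without Ins2-AKITA replicate 2 it was -0.32, and without WT replicate 3 or Ins2-AKITA replicate 1 it was -1.08 and -1.09.

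**Figure D3:**
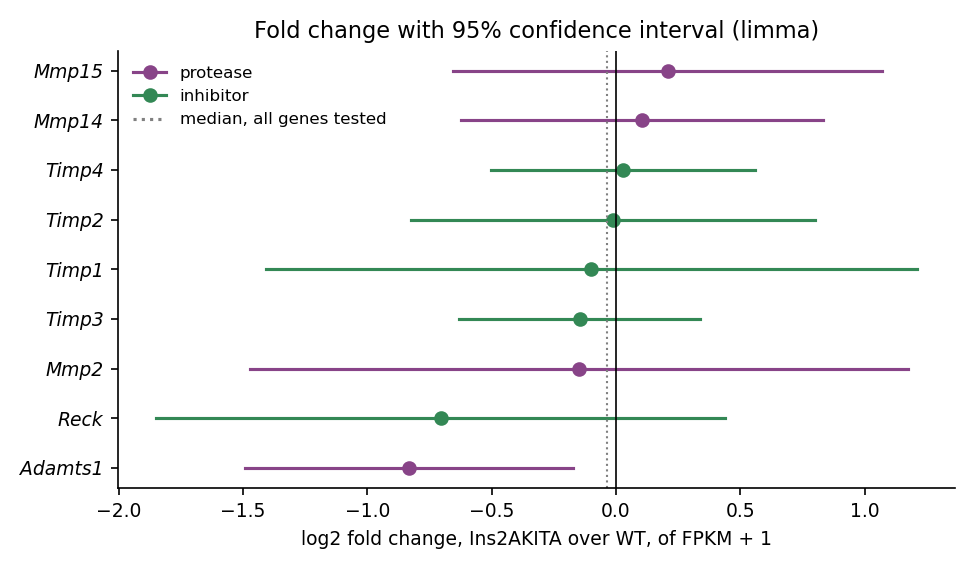
Log2 fold change of Ins2-AKITA over WT mice on the log2(FPKM + 1) scale for the 9 members tested, with 95% confidence intervals from limma (purple proteases, green inhibitors) and a dotted line at the median of all symbols, -0.03. The interval of *Adamts1*, -1.49 to -0.17, is the one that does not reach 0, before any adjustment for the 16286 tests.

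Of the 4 TIMP genes, 3 sit inside synapsin genes, which encode proteins of synaptic vesicles, on the opposite strand. *Timp1* lies within *Syn1*, *Timp3* within *Syn3* and *Timp4* within *Syn2*. *Timp1* and *Timp4* share 0 exon bases with their hosts in this annotation, whereas *Timp3* and *Syn3* share 1733. The libraries were stranded, but whether strand was used in computing FPKM is not stated in the sources used here, so part of the *Timp3* value is uncertain. *Syn3* stood at 40.2, 37.5 and 33.4 FPKM without the mutation and 32.6 and 37.5 with it, *Syn1* had between 41.0 and 58.3 FPKM over all 5 mice, and *Syn2* between 45.6 and 62.4. *BC100451*, inside the span of *Timp2* on the same strand, shares 0 exon bases with it and had between 3.32 and 10.6 FPKM.

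A ratio within a library does not depend on how the library was scaled. The summed FPKM of the 5 inhibitors was 5.38, 5.02 and 4.23 times that of the 5 proteases in WT, and 6.25 and 4.76 times in the mutants, so the groups overlapped. These ratios leave out the other MMP and ADAMTS genes. *Timp2*, *Timp3* and *Timp4* together made up between 82.0% and 93.5% of the inhibitor sum. *Adamts1* made up 46.0%, 35.1% and 48.0% of the protease sum in WT and 27.3% in each Ins2-AKITA mouse. The protease sum was 36.8, 33.4 and 39.4 FPKM in WT, and 30 and 30.8 in the mutants, without overlap. *Timp3* to *Adamts1*, the ratio of the highest inhibitor to the highest protease, was 4.09, 4.31 and 3.30 in WT, and 6.64 and 6.47 in the mutants, without overlap. This ratio, the protease sum and the *Adamts1* share all hold the *Adamts1* values compared above, so none is a separate result. Of the 4 proteases tested singly, 2 were lower and 2 higher. The ratio of *Timp2* to *Mmp14* was 5.44, 4.08 and 4.06 in WT, and 7.18 and 2.35 in the mutants.

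**Figure D4:**
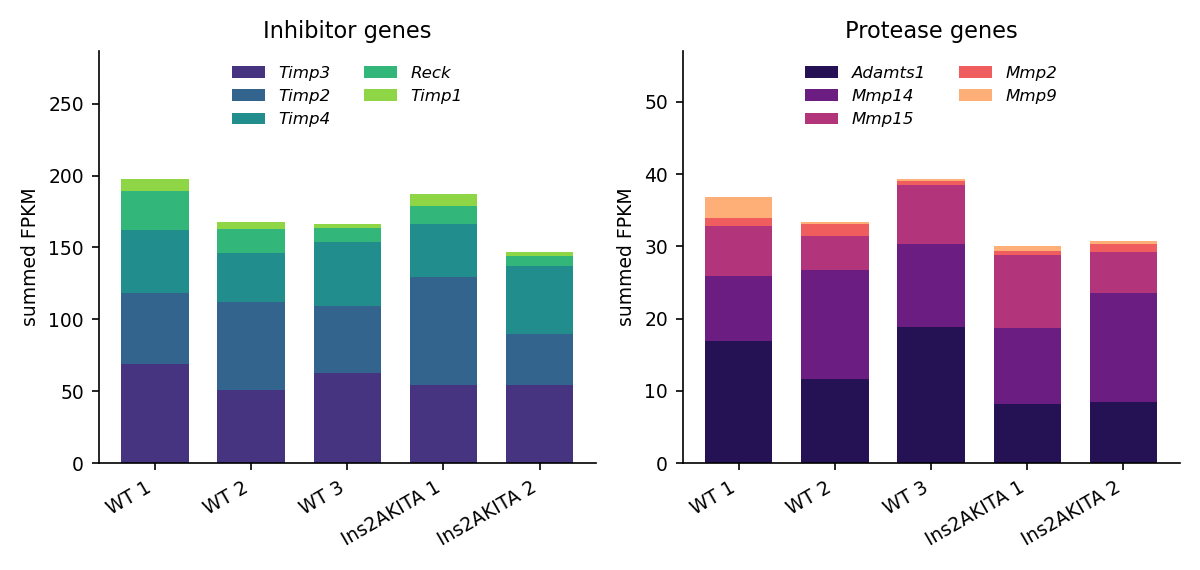
Stacked FPKM of the 5 inhibitors (left) and the 5 proteases (right) in each mouse, on linear axes from 0 with different scales. The inhibitor sums lie between 146.6 and 197.8 and the protease sums between 30 and 39.4, and the lowest segment on the right, *Adamts1*, is smallest in both Ins2-AKITA mice.

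The rest of the protease system was read from related lists. Of 19 other MMP genes, 9 were listed at 0 in all mice, among them the collagenases *Mmp8* and *Mmp13*, and 6 reached a mean FPKM of 1. None of the 6 passed in limma (smallest adjusted p = 0.90). Of them 1 was higher and 5 lower, against 53.5% lower among all symbols tested, and the median log2 fold change was -0.71. The most abundant, the GPI-anchored *Mmp17*, measured 23.6, 18.3 and 18.2 FPKM across the WT animals, set against 16.3 and 15 with the mutation. The membrane-bound *Mmp16* showed 34.0, 19.8 and 10.6 FPKM in the 3 WT animals while the mutants had 9.97 and 8.52. These were the 2 genes of the list with both Ins2-AKITA mice below all WT mice, against 10.3% of all symbols. *Mmp24*, a membrane-bound MMP of neurons, reached 13.8, 10.6 and 15.8 FPKM for WT and 14.6 and 23.2 for Ins2-AKITA, the highest log2 fold change of the list at 0.44 (standard error 0.29). The lowest was that of *Mmp23*, at -1.28 (standard error 0.77), at 8.18, 1.42 and 2.12 FPKM for WT and 1.85 and 0 for Ins2-AKITA. The median of the list thus rests on 6 genes, some of them with low values such as these.

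Among the other ADAMTS proteases no call was made either. Of 18 genes 15 were tested and 0 passed, and 3 were higher and 12 lower, against 53.5% lower among all symbols tested. Of the 15, 0 had both Ins2-AKITA mice below all WT mice, against 10.3% of all symbols, and 1, *Adamts12*, had both above, against 9.24%. *Adamts10*, the most abundant, stood at 26.9, 14.0 and 8.29 FPKM without the mutation and 14.5 and 7.08 with it. The extremes were *Adamts20* with a log2 fold change of -0.90 (standard error 0.68) and *Adamts12* with 0.81 (standard error 0.51), whose FPKM was 2.87, 0.757 and 2.64 in WT, and 3.07 and 5.42 in the mutants. All 7 ADAM sheddases, which release membrane proteins, were tested and 0 passed. *Adam15* was the most abundant of them, with 72.2, 83.4 and 52.5 FPKM across WT animals, and 50.7 and 40.8 in the mutants (log2 fold change -0.57, standard error 0.25), while *Adam10*, a sheddase of Notch, measured 28.9, 30.3 and 29.3 FPKM across the WT animals, set against 33.8 and 35.1 with the mutation. Their fold changes ran from -0.75 for *Adam12* (standard error 0.59) to 0.22 for *Adam10* (standard error 0.18).

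Of 10 activators of the proteases 8 were tested with limma and 0 passed the adjusted threshold, with 4 higher and 4 lower. *Furin*, the convertase that removes the inhibitory propeptide of membrane-bound MMPs, showed 57.9, 24.9 and 18.7 FPKM in the 3 WT animals while the mutants had 21.6 and 32.6. *Plat*, the tissue plasminogen activator, had the lowest log2 fold change at -0.71 (standard error 0.47) and *Plaur*, the urokinase receptor, the highest at 0.37 (standard error 0.42). Among 6 regulators of MMP activity or clearance 0 passed, with 1 higher and 5 lower, against 53.5% lower among all symbols tested. *Bsg*, which encodes an inducer of MMP expression that is abundant at the blood-brain barrier, reached 250, 510 and 319 FPKM for WT and 370 and 292 for Ins2-AKITA. *Cd44*, a hyaluronan receptor that docks MMP9, had the lowest log2 fold change at -0.85 (standard error 0.48), and *Thbs2*, a thrombospondin that takes part in MMP2 uptake, the highest at 0.03 (standard error 0.36).

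Of 15 matrix substrates, all tested, 0 passed. Of them 3 were higher and 12 lower, against 53.5% lower among all symbols tested, with a median log2 fold change of -0.22. *Lamc1*, the gamma chain of most vascular laminins, was the single gene of the lists of related genes below 0.05 in limma (unadjusted 0.040, adjusted 0.90), at 19.0, 16.4 and 15.4 FPKM for WT and 11.3 and 11.0 for Ins2-AKITA. *Col4a1*, a chain of basement membrane collagen, had the lowest log2 fold change at -0.65 (standard error 0.31). The proteoglycan genes *Bcan* and *Ncan*, substrates of ADAMTS proteases in brain matrix, overlapped between the genotypes. *Bcan* lay between 97.7 and 142 FPKM in WT and at 129 and 149 in the mutants, and *Ncan* between 30.7 and 71.4 in WT and at 61.6 and 75.4 in the mutants. *Ncan* had the highest log2 fold change of the list at 0.50 (standard error 0.36). For the 8 immediate early genes the median was -0.35, with 1 higher and 7 lower, against 53.5% lower among all symbols tested. Their fold changes ran from -0.93 for *Atf3* (standard error 0.61) to 0.02 for *Fos* (standard error 0.25). *Jun*, the most abundant, stood at 46.4, 58.5 and 74.3 FPKM without the mutation and 46.1 and 43.1 with it.

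**Figure D5:**
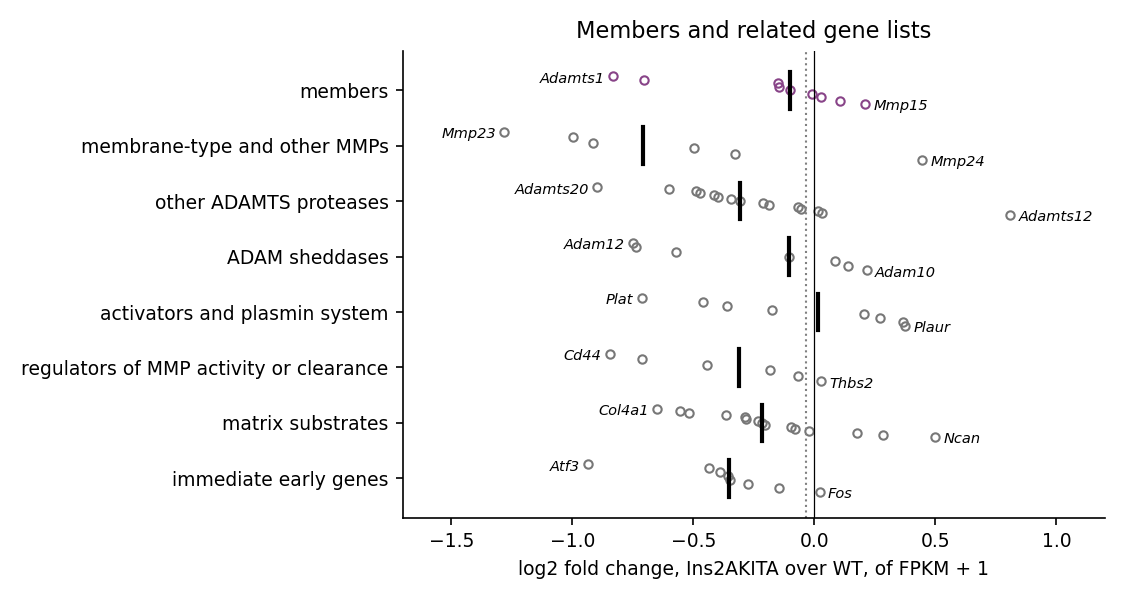
Log2 fold change of Ins2-AKITA over WT mice on the log2(FPKM + 1) scale for the tested genes of each list, 1 circle per gene, with a black bar at the list median, the extremes named and a dotted line at the median of all symbols. The 9 members tested have a median of -0.10 and the 6 other MMP genes tested one of -0.71, and 0 genes shown passed the adjusted threshold.

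The genes with the pattern most like that of *Adamts1* over the 5 mice were *Abt1*, *Rps27a-ps2* and *Dnajb1*. Likeness was the root mean square difference of log2(FPKM + 1) after centring each gene, over 5 mice and 10471 protein-coding symbols averaging 5 FPKM or more. It was 0.065, 0.079 and 0.10, against a median of 0.54 over these symbols. The genes were chosen as the nearest, so a value under the median was fixed in advance. *Dnajb1* measured 14.7, 8.93 and 16.2 FPKM across the WT animals, set against 5.67 and 6.88 with the mutation. *Rps27a-ps2* is named as a pseudogene of *Rps27a*, so its reads are uncertain. For *Timp3* the nearest were *Pgs1*, *Dlgap4* and *Prkag1*, at 0.034, 0.037 and 0.038, against a median of 0.32.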

How the data were processed

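After depletion of ribosomal RNA and a stranded library kit for low input, the authors mapped reads to NCBIM37 with TopHat2 2.0.4, removed duplicated reads with Picard 1.92 and ran tests with Cufflinks 2.2.1. Each mouse has 1 deposited table of FPKM by gene. The program that wrote them and the Ensembl release are not given in the sources used here. Removing duplicates can lower abundant short genes.

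Identifiers were matched to GENCODE vM1 (37197 of 37982), and rows sharing a symbol were summed. Testing used limma 3.58.1 under R 4.3.3 on symbols averaging 1 FPKM or more (eBayes with a trend, two-sided, Benjamini-Hochberg) on log2(FPKM + 1), a scale that understates changes of low genes. Python 3.11.15 was used otherwise. Fragments were estimated from genes with 1 transcript of at least 600 bases, as FPKM times the length less an offset of 222 to 227 bases. Between 97.6% and 97.8% of values up to 5 fragments were within 0.02 of a whole number. Poisson intervals and fragment numbers cover counting error only. Groups and replicate numbers came from the sample titles, and no sample was left out.

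The members and lists were chosen with earlier results of these data known. Named genes are the 10 members, overlapping genes, and the 3 genes most like the highest protease and inhibitor among the members. Of each list, the most abundant gene, the extremes of fold change and those with an unadjusted p under 0.05 are named. *Mmp16*, *Mmp8*, *Mmp13* and the marker genes were named after their values were seen, as was the glycine or asparagine allowed in the motif. The settings varied were the pseudocount (0.1), the filter (none, or 5 FPKM), median-ratio scaling, scaling to the protein-coding FPKM sum, a constant prior variance, the replicate block and leaving out each mouse.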

Additional observations from a re-analysis of the deposited data

How the results depend on the processing

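The count of members past an adjusted p of 0.05 was 0 under all 12 alternatives with limma, beside 1 at an unadjusted p under 0.05 with the values as deposited, and the median log2 fold change of the members stayed negative, between -0.24 and -0.05 with 1 mouse left out. Over all symbols, limma called 0 higher and 4 lower. The number lower became 2 with no filter, with the filter at 5 and with a constant prior, and the number higher became 1 with a constant prior. With 1 mouse left out, between 0 and 10 were higher and between 2 and 10 lower. Leaving out an Ins2-AKITA mouse assumes that the remaining one varies like the WT mice. Without WT replicate 3 the number lower was 10, and without Ins2-AKITA replicate 2 the number higher was 10. The cause was not tested.

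*Adamts1* lay between -1.02 and -0.70 in these settings, with adjusted p between 0.59 and 1.00. Relative to the endothelial and the arterial smooth muscle marker sums, alternatives chosen after seeing the data, its log2 difference was -0.52 and -0.31. These 2 values have no pseudocount, so they are not on the scale of -0.83, and with a pseudocount of 0.1 *Adamts1* itself was at -0.90. As a percentage of the pericyte sum its mean was 6.86 in WT and 4.11 in Ins2-AKITA mice. As a percentage of the astrocyte sum it was 0.635 and 0.230, without overlap. Near-zero fold changes turned sign. *Timp2* (-0.01) became 0.016 with median-ratio scaling, and *Timp4* (0.03) became -0.017 with the protein-coding sum. With 1 mouse left out, *Mmp14* ranged from -0.14 to 0.35 and *Timp1* from -0.82 to 0.62 (turning without WT replicate 1 or Ins2-AKITA replicate 2), *Timp2* from -0.54 to 0.52 and *Timp4* from -0.15 to 0.21 (without WT replicate 2 or Ins2-AKITA replicate 2), *Mmp2* from -0.38 to 0.034 and *Mmp15* from -0.16 to 0.58 (without Ins2-AKITA replicate 1). The inhibitor to protease ratio of Ins2-AKITA over WT mice, 1.13, ranged from 0.977 without Ins2-AKITA replicate 1 to 1.28 without Ins2-AKITA replicate 2, and was 0.905 without *Timp3* and *Adamts1*.

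With the replicate block limma called 0 symbols higher and 5 lower, *Adamts1* was at -0.70 and *Reck* at -1.08 (adjusted p = 0.60 for both), and 1249 symbols had an unadjusted p under 0.05 against 726 without it. The labels do not say that the numbers pair the mice. With 2 Ins2-AKITA mice their deviations are exact opposites, and those of same-numbered mice correlated at 0.051 and -0.034. WT replicate 3 has no partner. The block changed no call of a member. *Mmp2*, *Mmp9* and *Timp1* rest on few fragments per mouse.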
